A study of Bos taurus with 20 samples.

Results

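The CD34 sialomucins CD34, PODXL and PODXL2 and the early progenitor genes PI16, ANXA3, PCOLCE2 and FBN1 were examined in clonal populations of bovine mesenchymal stromal cells (MSCs). These 7 genes were chosen by name and were all found among the 33063 named genes of the count table. MSCs were derived from inguinal or perirenal adipose tissue of Holstein Friesian x Aberdeen Angus calves aged 1 to 6 months, and single sorted cells were grown into clones in medium with fetal bovine serum and basic fibroblast growth factor. Adipogenic (A) clones had the highest capacity to form adipocytes in a differentiation test, and non-adipogenic (N) clones formed none. RNA was taken from 10 A and 10 N clones, none of which had been differentiated. The clones came from 4 animals, with 1 clone per condition from animals 17 and 20 and 4 per condition from animals 22 and 23. Each library is therefore the progeny of 1 cell of 1 animal after expansion in culture, and clones of 1 animal are not independent animals. The labels name no treatment or edited allele for either group.

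CD34, PODXL (podocalyxin) and PODXL2 (endoglycan) form a small family of transmembrane sialomucins, proteins with a heavily glycosylated extracellular stem and a short cytoplasmic tail. The stem can carry the sialylated and sulfated sugars that selectins bind, and the tail binds adaptor proteins that connect it to the actin cytoskeleton. CD34 is best known as a surface marker of haematopoietic stem cells and of endothelium, and in adipose tissue it also marks stromal progenitors. PODXL is abundant on kidney podocytes, on endothelium and on mesothelium. PI16, a secreted or membrane-anchored protein of the CAP-domain family, and ANXA3, a calcium-dependent phospholipid-binding annexin, mark early adipose progenitors in single-cell work on other species, together with the extracellular matrix genes PCOLCE2 and FBN1. PCOLCE2 encodes an enhancer of procollagen C-proteinase, and FBN1 encodes fibrillin-1, the main protein of extracellular microfibrils.

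The bovine CD34 transcript is the only one of the 7 for which the study designed a qPCR assay, and its primer pair is shown because it defines the transcript that the study followed up. Both primers have 20 bases and are written 5′ to 3′ in lower case, with no part marked.
CD34 forward: gcagtcaccttagttccagc
CD34 reverse: agtcgcaaagctgatgaggg
The study reported the CD34 difference by qPCR as well. By flow cytometry of MSC preparations it found the share of CD34-positive cells almost negligible. No qPCR value was used here. By the RefSeq annotation of the ARS-UCD2.0 assembly, used only for names and neighbours, CD34 (gene ID 281051) is on chromosome 16, PODXL (616366) on chromosome 4, PODXL2 (532521) on chromosome 22, PI16 (507058) on chromosome 23, ANXA3 (518050) on chromosome 6, PCOLCE2 (513618) on chromosome 1 and FBN1 (281154) on chromosome 10. The 3 sialomucin genes and PI16 overlap no other annotated gene. ANXA3 overlaps the long non-coding RNA LOC132345534, PCOLCE2 overlaps the RNA gene LOC783224, and FBN1 overlaps LOC112448492 and MIR10168. Whether reads were counted by strand is not given in the sources used here, so reads of these overlapping genes may be included or lost.

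The libraries held 14615493 to 29185355 counts in A clones and 14908802 to 43111345 counts in N clones. Levels are given in CPM, in which a count is divided by the size of its library after edgeR's TMM scaling. CPM values depend on transcript length, so levels are compared between clones and not between genes. The low-count filter required 0.621 CPM, before TMM scaling, in at least 10 of the 20 clones. It kept 12900 genes and 6 of the 7 members, all but PI16. PODXL, PODXL2 and ANXA3 could have passed through the A clones alone and CD34 through the N clones alone. Differential expression was tested with edgeR's quasi-likelihood test with the animal as a block. A gene was called at a Benjamini-Hochberg adjusted p under 0.05 over all genes tested and a change of at least 2-fold. Of the 12900 genes, 3.95% were called higher in A clones and 1.81% were called lower. Of the 6 members tested, 2 were called higher (ANXA3 and PODXL2), 1 was called lower (CD34) and 3 were not called (PODXL, PCOLCE2 and FBN1). The median log2 fold change of all genes tested was -0.01. CD34 was among the surface genes that the study itself chose from these libraries, so its direction is not independent evidence. In bulk RNA, fewer cells that express a gene and less RNA per cell cannot be told apart.

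**Figure D1:**
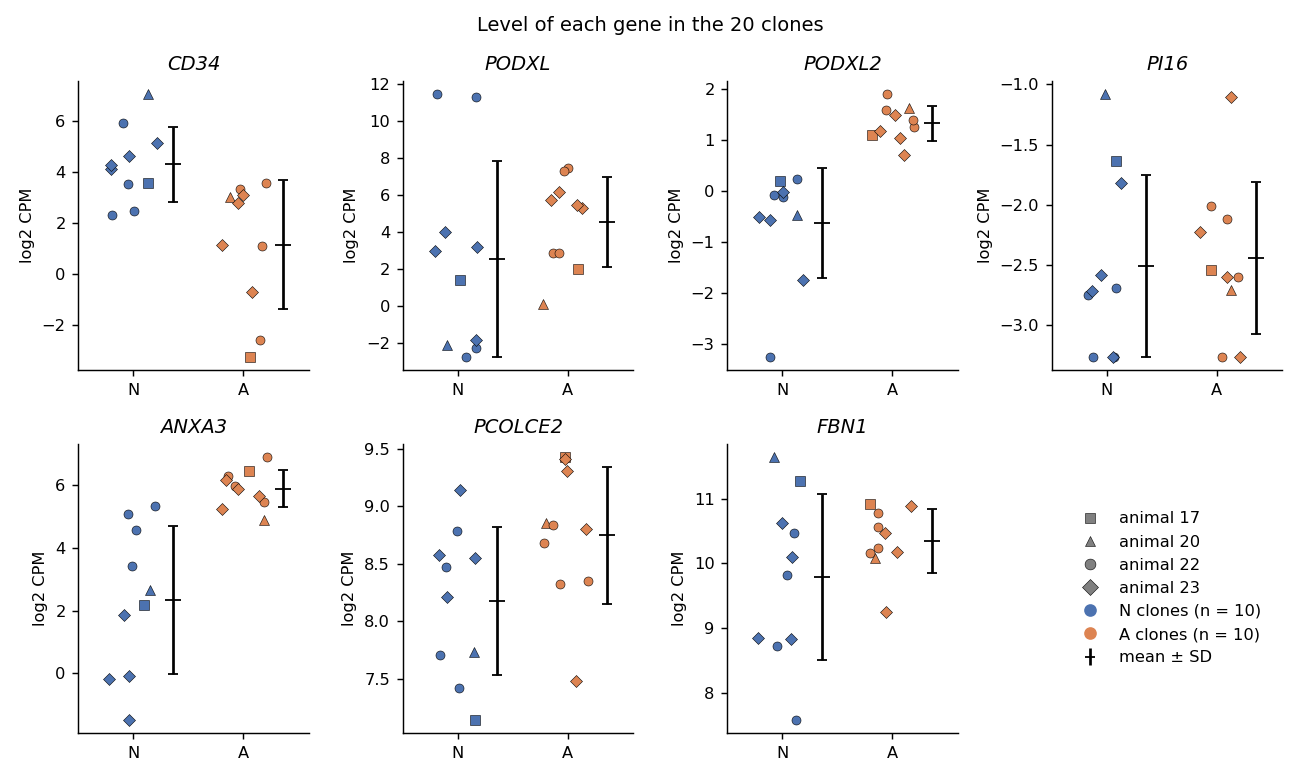
Level of each of the 7 genes in every clone on a log2 CPM scale (prior count of 2), with N clones in blue, A clones in orange and the symbol giving the animal; bars show the mean ± SD of 10 clones. PODXL2 separates the groups with no overlap, ANXA3 is narrow in A and wide in N clones, and PODXL has 2 N clones far above every other clone.

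CD34 was lower in A clones. The 10 N clones held between 4.88 and 134.5 CPM (median 18.5), and the 10 A clones between 0 and 11.7 CPM (median 4.42). The groups overlapped at their inner edges, with 7 N clones above every A clone and 5 A clones below every N clone. The mean level was 32.7 ± 39.5 CPM in the N group and 5.01 ± 4.53 CPM in A clones (mean ± SD of 10 clones). The fitted difference was -2.55 on the log2 scale, with a standard error of 0.74 and an adjusted p of 0.0233 (edgeR), a 5.87-fold lower level in A clones.

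The highest CD34 level was in N clone 20-15, at 134.5 CPM, followed by N clone 22-9 at 60.6 CPM and N clone 23-74 at 35.5 CPM. At the other end, CD34 was near the limit of detection in 2 A clones. A clone 17-57 had 0 counts, which allows a level of up to 0.204 CPM, and A clone 22-121 had 1 count. The N clone of the same animal as 17-57 had 220 counts, or 12.0 CPM. CD34 was lower in A than in N clones in all 4 animals. In animal 20 it was 8.09 CPM in the A clone and 134.5 CPM in the N clone. In animal 23 the ranges did not overlap, at 0.504 to 8.64 CPM in A and 17.6 to 35.5 CPM in N clones, and 7.95% of the genes tested likewise had every A clone of that animal below every N clone. In animal 22 they did, at 0.0609 to 11.7 CPM in A and 4.88 to 60.6 CPM in N clones.

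When each clone was left out in turn, CD34 lost its call in 1 of 20 fits, whereas PODXL2 and ANXA3 kept theirs in all 20. Without N clone 22-9 the difference was -2.13 with an adjusted p of 0.0840, and without N clones 22-5 and 22-9 together it was -2.39 with an adjusted p of 0.0674 (edgeR). Over the 20 fits the difference of CD34 lay between -2.81 and -2.13.

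PODXL2 was higher in A clones and was the only member whose groups did not overlap. The N clones held between 0 and 1.08 CPM (median 0.714) and the A clones between 1.51 and 3.61 CPM (median 2.38). Every A clone was above every N clone, which held for 0.225% of the genes tested. The mean was 0.663 ± 0.347 CPM in the N group and 2.46 ± 0.608 CPM in A clones (mean ± SD of 10 clones). The fitted difference was 1.89 (SE 0.39, adjusted p = 0.00418, edgeR), a 3.69-fold higher level in A clones.

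PODXL2 is a gene of few counts here, which limits the precision of any single clone. The A clones held 21 to 80 counts and the N clones 0 to 32. The raw counts overlapped through N clones 22-18 and 22-17, whose 32 and 24 counts came to 0.815 and 1.08 CPM. N clone 22-5 had no count, which allows up to 0.169 CPM. The gene was higher in A clones in each of the 4 animals. In animal 17, the closest pair, it was 2.04 CPM in the A clone and 1.03 CPM in the N clone. In animal 22 it was 2.82 ± 0.589 CPM in A and 0.683 ± 0.470 CPM in N clones (SD of 4 clones), and in animal 23 it was 2.07 ± 0.487 and 0.562 ± 0.283 CPM. Without N clones 22-5 and 22-9 the difference was 1.72 (SE 0.25, adjusted p = 0.00165).

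PODXL was not called, and its level differed by several orders of magnitude among N clones. Its lowest, median and highest levels were 0.0448, 5.19 and 2839 CPM in N clones, and 0.980, 41.8 and 180.4 CPM in A clones. The highest levels of all were in N clones 22-5, at 2537 CPM from 44934 counts, and 22-9, at 2839 CPM from 47293 counts. The other 8 N clones were at most at 15.7 CPM, and 3 of them held 3 counts or fewer. The mean was therefore higher in N clones, at 541 ± 1134 CPM against 56.6 ± 64.0 CPM (SD of 10 clones), while the median was higher in A clones.

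The fitted difference of PODXL was -0.03, with a standard error of 2.15 and an adjusted p of 0.993 (edgeR). The sign turned in 6 of 20 fits when each clone was left out in turn. Without N clones 22-5 and 22-9 the difference was 3.53 (SE 1.18, adjusted p = 0.0582), which did not pass the threshold. DESeq2 without the block, given all 20 clones, gave 2.37 with an adjusted p of 0.0466, which changed the call. By contrast, edgeR without the block had the opposite sign, which is the direction of the group means of CPM. DESeq2 was run with its default replacement of outlying counts, and whether that acted on N clones 22-5 and 22-9 was not tested. The 8 other N clones had a mean of 4.43 ± 5.82 CPM and a median of 1.34 CPM.

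Within animals, the direction of PODXL in animal 22 depended on the scale. The mean of log2 CPM was higher in A than in N clones by 0.61 and 2.26 in animals 17 and 20 (1 clone per condition) and by 0.69 and 3.59 in animals 22 and 23. The mean of CPM in animal 22 ran the other way, at 88.0 ± 93.8 CPM in A and 1344 ± 1557 CPM in N clones (SD of 4 clones), and a fit on that animal alone gave -3.94 with an adjusted p of 0.427 (edgeR). In animal 23, where neither of the outlying clones arose, PODXL was at 39.6 to 71.0 CPM in A clones and at 0.180 to 15.7 CPM in N clones, with no overlap, and 10.2% of the genes tested had every A clone of that animal above every N clone. A fit on the 8 clones of animal 23 alone gave 2.68 with an adjusted p of 0.0885 (edgeR). In animal 22 the N clones lay at both ends, with 0.0448 and 0.102 CPM in clones 22-17 and 22-18. The A clones of animal 22 fell between them, at 7.13 and 7.16 CPM in clones 22-121 and 22-27 and at 157 and 180.4 CPM in clones 22-16 and 22-11.

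**Figure D2:**
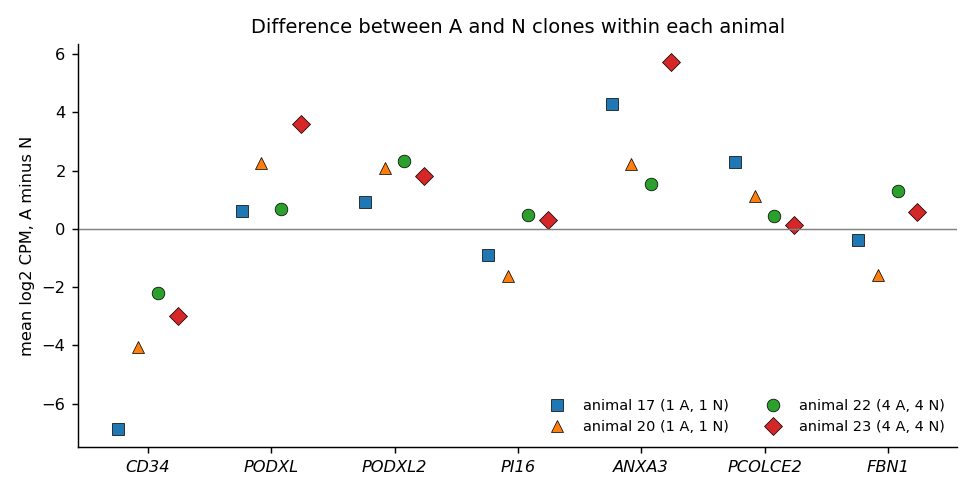
Difference between the mean log2 CPM of A and N clones of each animal (y axis, log2 scale) for each gene, with 1 clone per group in animals 17 and 20 and 4 per group in animals 22 and 23. On this scale CD34 was lower and PODXL2, ANXA3, PODXL and PCOLCE2 were higher in A clones of each animal, while FBN1 and PI16 differed in sign; for PODXL in animal 22 the means of CPM had the opposite order, and the point for CD34 in animal 17 rests on an A clone with 0 counts.

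Most listed markers of mesothelium, the cell layer that covers visceral fat and expresses PODXL, moved with PODXL in the outlying clones. The summed level of 10 mesothelial markers was 10396 CPM in N clone 22-5 and 7293 CPM in N clone 22-9. It was between 9.31 and 639 CPM in the other N clones and between 8.97 and 1217 CPM in A clones. The keratin KRT8 was at 4779 and 2727 CPM in N clones 22-5 and 22-9, KRT19 at 2263 and 1806 CPM, and mesothelin (MSLN) at 418 and 344 CPM. UPK3B, another marker on the list, was not highest there. It was at 6.89 and 11.8 CPM in these clones, against 14.9 CPM in N clone 23-10 and 16.5 CPM in A clone 22-11. CALB2, a defining mesothelial marker, was at 0 in every N clone and at 1 count at most in A clones. A clones 22-11 and 22-16, the highest of the A clones for PODXL, also had the highest mesothelial sums among A clones, with 1217 CPM in clone 22-11. A clone 23-14 had the lowest sum of all, 8.97 CPM, with PODXL at 39.6 CPM. The part of these markers in the level of PODXL was not tested. Of the mesothelial list, 8 of 10 genes were tested, 1 of which was called (MSLN, lower in A clones) and 7 were not. Over all genes tested, 1.81% were called lower.

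**Figure D3:**
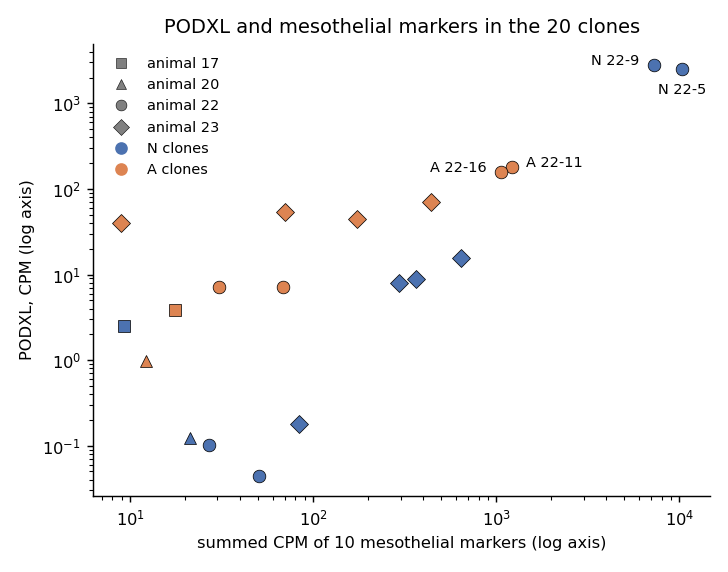
PODXL level (y axis, CPM, log axis) against the summed level of 10 mesothelial markers (x axis, CPM, log axis) in each of the 20 clones, with colour for the condition and symbol for the animal. N clones 22-5 and 22-9 stand at the upper right, at 2537 and 2839 CPM of PODXL, followed by A clones 22-11 and 22-16, and clones with few mesothelial transcripts spread from 0.0448 to 54.2 CPM of PODXL.

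N clone 22-5 was also the lowest of all clones for several MSC markers. THY1 (CD90) was at 0.395 CPM and NT5E (CD73) at 0.508 CPM in that clone, whereas the lowest A clones had 18.0 and 65.2 CPM. ENG, PDGFRB and ITGB1, other MSC markers, were also lowest in N clone 22-5, at 19.1, 59.6 and 1584 CPM. CD44 and PDGFRA were not, at 957 and 167 CPM. All 7 MSC markers were detected in all 20 clones and none was called. Since CD34 and PODXL are also expressed by endothelium, and CD34 by haematopoietic cells, markers of both were examined. The endothelial marker CLDN5 had no count in any clone, and CDH5, KDR and TIE1 reached at most 0.307, 0.491 and 0.327 CPM. Other markers on the list were higher. TEK and EGFL7 reached 3.27 and 4.33 CPM, and PECAM1, VWF, EMCN and ERG reached 16.3, 30.1, 56.1 and 94.0 CPM. The summed level of 10 endothelial markers was 1.52 to 56.0 CPM in N and 14.0 to 108.2 CPM in A clones, and 2 of 6 tested (ERG and EGFL7) were called higher in A clones, with a median log2 fold change of 1.11. The pan-leukocyte gene PTPRC (CD45) reached at most 0.253 CPM, and CD3E also 0.252 CPM. CD14 and CD79A reached 6.57 and 1.23 CPM. CSF1R was at 0.476 to 2.38 CPM in A clones and at no more than 0.255 CPM in N clones, and did not pass the low-count filter. Among 7 haematopoietic markers only CD68 was tested, and it was called higher in A clones. The receptor gene KIT, also on that list, was at 35.2 to 120.6 CPM in the N clones of animal 23 and at most at 0.678 CPM in the other N clones. In A clones KIT was at 15.4 CPM in clone 23-108 and at most at 1.44 CPM in the others. Of 8 smooth muscle and pericyte markers, 7 were tested and 3 (MYH11, CSPG4 and NOTCH3) were called higher in A clones, with a median of 1.76. Their summed level was 1060 to 9630 CPM in N and 4279 to 11108 CPM in A clones. Over all genes tested, 3.95% were called higher in A clones. The part of these markers in the differences of the members was not tested.

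ANXA3 was higher in A clones. The N clones held between 0.253 and 40.5 CPM (median 5.31) and the A clones between 29.7 and 120.4 CPM (median 60.9). The groups overlapped only in their extremes, since 8 A clones were above every N clone and 8 N clones were below every A clone. The mean was 12.4 ± 14.8 CPM in the N group and 64.4 ± 26.8 CPM in A clones (mean ± SD of 10 clones). The fitted difference was 3.29 (SE 0.62, adjusted p = 0.00283, edgeR), or 9.76-fold. The difference was 2.37 without the animal block and 3.47 without N clones 22-5 and 22-9, with adjusted p of 0.0217 and 0.00494.

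ANXA3 was also compared between animals. The N clones held 10.7 to 40.5 CPM in animal 22, with a mean of 27.1, and 0.253 to 3.54 CPM in animal 23, with a mean of 1.35 (n = 4 each). These ranges did not overlap, and 4.34% of the genes tested had every N clone of animal 22 above every N clone of animal 23. The A clones were at 76.6 ± 32.4 CPM in animal 22 and at 55.1 ± 14.6 CPM in animal 23 (SD of 4 clones). The difference between A and N clones was larger in animal 23 by 3.85 on the log2 scale (SE 0.81, unadjusted p = 0.000306, adjusted p = 0.290 by edgeR's test of the interaction). This interaction was called in 0.031% of 12915 genes and in 0 of the 6 members by edgeR, of which 2 (ANXA3 and PODXL) had an unadjusted p under 0.05, and DESeq2's Wald test called ANXA3. With the condition as a block, the difference of animal 23 from animal 22 in ANXA3 was -2.24 (SE 0.71, unadjusted p = 0.00671, adjusted p = 0.211). For that animal difference 0.108% of genes and 0 of 6 members were called by edgeR, 1 member (ANXA3) had an unadjusted p under 0.05, and DESeq2 again called ANXA3. For PODXL the interaction was 6.61 (SE 2.81, unadjusted p = 0.0336, adjusted p = 0.517), and it became -7.31 without N clones 22-5 and 22-9.

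PI16 was barely detected in any clone. The N clones held 0 to 6 counts and the A clones 0 to 5, and 8 of 10 clones in each group held 3 counts or fewer. The highest was N clone 20-15, whose 6 counts came to 0.368 CPM, followed by A clone 23-68 with 5 counts. A difference was not detectable at this depth. In a fit with no filter the log2 difference was 0.35 (SE 0.68, adjusted p = 0.764). DPP4, the protease gene often used with PI16 to mark early adipose progenitors, was also near the limit of detection, at no more than 0.184 CPM in N and 0.378 CPM in A clones.

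PCOLCE2 and FBN1 were abundant in all 20 clones and were not called. PCOLCE2 lay between 141 and 564 CPM in N clones (median 325) and between 178 and 691 CPM in A clones (median 452). The groups overlapped over most of their range. The fitted difference of PCOLCE2 was 0.57 (SE 0.27, unadjusted p = 0.0458, adjusted p = 0.131, edgeR). Within animals the log2 difference was 2.29 and 1.13 in animals 17 and 20 and 0.45 and 0.13 in animals 22 and 23. Without A clone 23-108, the lowest A clone at 178 CPM, it was 0.70 with an adjusted p of 0.0425, a change of under 2-fold.

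FBN1 lay between 192 and 3212 CPM in N clones (median 997) and between 609 and 1930 CPM in A clones (median 1316). The N clones lay on both sides of the A clones, with 4 below and 2 above all of them. The lowest was N clone 22-5 and the highest N clone 20-15. The coefficient of variation was 80.6% in N and 30.2% in A clones, a difference that was not tested. The fitted difference was 0.41 (SE 0.37, adjusted p = 0.447, edgeR). Within animals the log2 difference was negative in animals 17 and 20, at -0.37 and -1.57, and positive in animals 22 and 23, at 1.29 and 0.60. Without N clones 22-5 and 22-9, at 192 and 423 CPM, the difference was 0.11 (SE 0.32, adjusted p = 0.836).

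**Figure D4:**
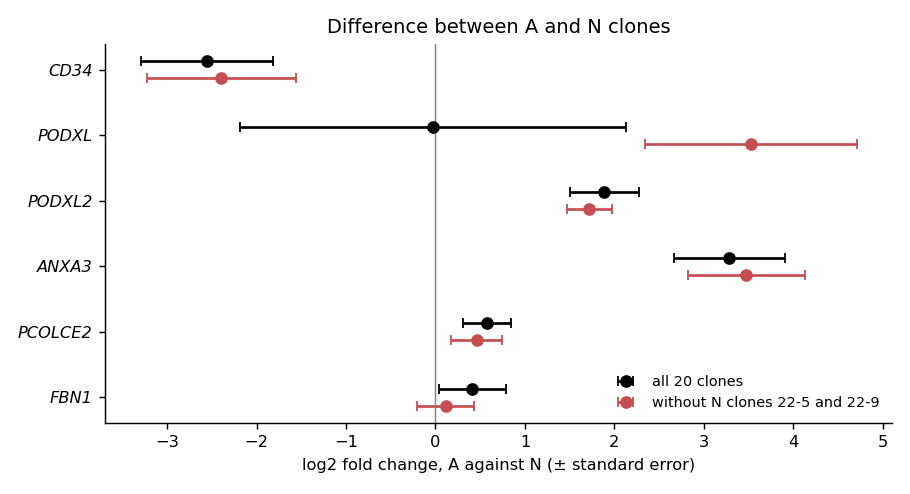
Log2 fold change of A against N clones (x axis) with its standard error for the 6 members tested, over all 20 clones in black and without N clones 22-5 and 22-9 in red. PODXL moved from -0.03 to 3.53, while CD34, PODXL2 and ANXA3 kept their sign and lay within 0.2 of the first value.

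Counting clones as replicates bears on all of these calls. When the counts were summed per animal and condition, leaving 4 A and 4 N sums, the log2 differences were -3.30 for CD34, 1.80 for PODXL2 and 3.28 for ANXA3, with adjusted p of 0.277, 0.244 and 0.258 (edgeR). No gene passed the threshold in that fit, and 2243 genes, among them 3 members, had an unadjusted p under 0.05.

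Pairs of members were compared over the clones after condition and animal means had been removed. Removing these means leaves values that are not independent, and in animals with 1 clone per condition they are equal and opposite. The permutations treated all values as exchangeable, so their p-values may be too small. Of 15 pairs of members over 20 clones, none had an adjusted p under 0.05 by Pearson's or Spearman's correlation (permutation test, two-sided), and 3 pairs had an unadjusted p under 0.05 by Pearson's. The closest was PODXL2 with FBN1, with r = 0.623 (permutation p = 0.00357, adjusted p = 0.0535) and rho = 0.344 (permutation p = 0.137, adjusted p = 0.572). It fell to r = 0.233 without the 2 clones farthest from the median of PODXL2, so it depended on those clones. When each clone was left out in turn, r for this pair was 0.356 to 0.688. The adjusted p of the permutation test was then at or above the threshold in 15 of 20 fits, and 0.0206 at the lowest. CD34 and PODXL gave r = 0.350 (permutation p = 0.131, adjusted p = 0.340) and rho = 0.525 (permutation p = 0.0183, adjusted p = 0.274), and r was 0.288 without the 2 clones farthest from the median of CD34.

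Among all genes tested, the 3 with the pattern most like each member over the 20 clones, by Pearson's r after the same means were removed, are given as a description. For CD34 these were CDC5L (r = 0.803), LOC100848995 (0.771) and FYB1 (0.764). For PODXL they were LOC112448832 (0.938), RNPEP (0.936) and VWA7 (0.930), values that include the 2 outlying N clones. For PODXL2 they were ZNF10 (0.931), EFS (0.900) and VASH1 (0.894), values that include N clone 22-5, which had 0 counts of PODXL2. Spearman's rho for these 3 was 0.758, 0.722 and 0.806. For ANXA3 they were TPPP (0.829), ARHGAP42 (0.814) and BTBD11 (0.804). For PCOLCE2 they were UBE2K (0.829), PKIG (0.819) and LOC101905588 (0.804). For FBN1 they were OGN, the small leucine-rich proteoglycan osteoglycin (0.956), ASPH (0.942) and MRC2 (0.924).

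Among genes that act with the sialomucins, 1 was called, where 3.95% of all genes tested were called higher in A clones and 1.81% lower. Of 14 genes for selectins and for the enzymes that build selectin ligands, 7 were tested, 0 were called higher and 1 was called lower. The median log2 fold change was -0.39, against -0.01 over all genes. The gene called was ST3GAL4, a sialyltransferase that adds terminal sialic acid, at 63.4 ± 28.6 CPM in N and 29.0 ± 7.33 CPM in A clones (SD of 10 clones; log2 difference -1.13, SE 0.25, adjusted p = 0.00706). The galactosyltransferase B4GALT1 was at 0.39 and the sulfotransferase CHST2 at -0.55, with adjusted p of 0.123 and 0.236. All 7 tail adaptor genes were tested and 0 were called, with a median of -0.01. Ezrin (EZR), moesin (MSN) and radixin (RDX), which tie the tail to actin, had differences of -0.32, 0.21 and 0.17. SLC9A3R2, a PDZ scaffold that binds the tail of podocalyxin, had a difference of -0.99 (SE 0.31, adjusted p = 0.0336), just short of 2-fold.

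Of 14 other genes of the early progenitor state, 11 were tested, 0 were called higher and 1 was called lower, with a median log2 fold change of 0.12. Over all genes tested, 3.95% were called higher and 1.81% lower. The gene called was CD55, the complement regulator decay-accelerating factor, which was at 253 ± 117 CPM in N and 50.2 ± 52.7 CPM in A clones (log2 difference -2.78, SE 0.63, adjusted p = 0.00695); the study also chose CD55 from these libraries. The most abundant others, IGFBP6, CD248 and MFAP5, had differences of -0.29, 0.37 and 0.12, with adjusted p from 0.462 to 0.854. Among 12 genes of committed pre-adipocytes, 10 were tested, 2 were called higher and 0 lower, with a median of 1.36. The genes called were PPARG, the nuclear receptor that drives adipogenesis (log2 difference 3.77, SE 0.78, adjusted p = 0.00486), and the apolipoprotein APOE (1.93, SE 0.41, adjusted p = 0.00509). The difference was positive in 8 of the 10. COL15A1, LPL and ICAM1, the most abundant of those not called, had differences of -0.34, 1.93 and 0.57, with adjusted p of 0.648, 0.115 and 0.481 (edgeR). CD36 and CEBPA, which the study reported as higher in A clones, were not called here. CD36 was at 1.78 (SE 0.63, adjusted p = 0.0539, edgeR), and CEBPA did not pass the low-count filter. The groups had been formed by the capacity to make adipocytes.

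The matrix partners of FBN1 and PCOLCE2 and the relatives of ANXA3 and PI16 gave 2 calls. The shares over all genes tested were 3.95% called higher and 1.81% called lower, and the lists were not tested against them. Of 23 genes for fibrillin microfibrils other than FBN1, 20 were tested, 0 were called higher and 1 was called lower, with a median of -0.14. The gene called was FBLN2, encoding the microfibril-binding fibulin-2 (log2 difference -1.15, SE 0.39, adjusted p = 0.0470). The latent TGF-beta binding proteins LTBP2 and LTBP3 and the crosslinking enzyme LOX had differences of -0.43, -0.10 and 0.01. FURIN, also on that list, was past the threshold on p but short of 2-fold, at 0.69 (SE 0.24, adjusted p = 0.0467, edgeR). Of 10 genes for procollagen C-terminal processing, 8 were tested, 1 was called higher and 0 lower, with a median of 0.42. The gene called was BMP1, the procollagen C-proteinase that PCOLCE2 enhances, at 179 ± 55.3 CPM in N and 365 ± 83.9 CPM in A clones (SD of 10 clones; log2 difference 1.04, SE 0.14, adjusted p = 0.000476). Its collagen substrates COL1A2 and COL1A1 had differences of 0.22 and 0.37, and the matrix protein FN1 of 0.47, none of which passed. COL3A1, another fibrillar collagen of that list, was past the threshold on p but short of 2-fold, at 0.93 (SE 0.24, adjusted p = 0.0126). Of the other annexins, 8 were tested and 0 called, with a median of 0.03, and the most abundant, ANXA2, ANXA5 and ANXA1, had differences of 0.05, 0.22 and 0.01. ANXA4 was past the threshold on p but short of 2-fold, at -0.57 (SE 0.13, adjusted p = 0.00836). Of 12 CAP-domain genes related to PI16, 5 were tested and 0 called, with a median of -0.25, and CRISPLD2, GLIPR2 and GLIPR1 had differences of 0.41, -0.25 and 0.63.

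**Figure D5:**
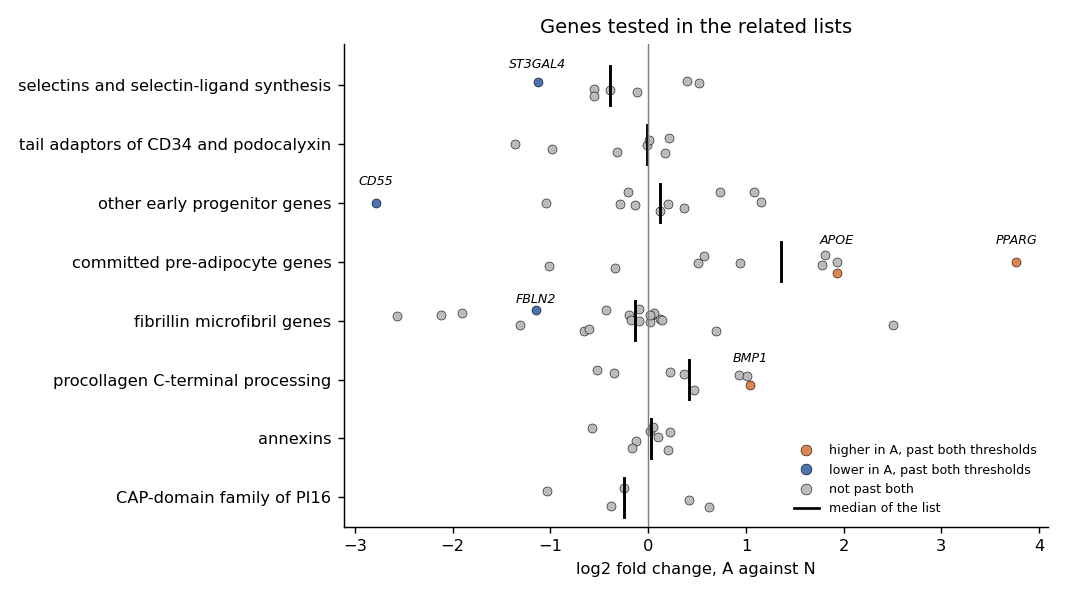
Log2 fold change of A against N clones (x axis) for each tested gene of 8 related lists (rows), with genes past both thresholds coloured and named, and the vertical bar giving the median of the list. The medians of these 8 lists lie between -0.39 and 0.42 except for the committed pre-adipocyte genes, at 1.36.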

How the data were processed

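RNA sequencing libraries of 10 A and 10 N undifferentiated MSC clones were analysed, with condition, animal and clone number from the sample labels. Per the labels and the study's methods, the deposited values are raw counts per gene. The submitters' processing notes name bcl2fastq 2.20, Trimmomatic 0.36, STAR 2.5.2b, featureCounts of Subread 1.5.2 and the build ARS-UCD1.2. The kit was directional, and the strand setting of the counting is not given in the sources used here. Of 33064 rows, 1 had no gene name. It was left out, with 0.113% to 0.333% of the counts per clone. Columns from outside the series numbered 0, and no clones had identical counts.

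From these counts, edgeR 4.0.16 in R 4.3.3 was used (TMM, default filter on the condition, robust quasi-likelihood F test, animal as a block). The thresholds are those of the study. Standard errors were derived from the fold change and F. log2 CPM used a prior count of 2, and a count of 0 was read as at most 3 counts, which covers counting error only. Interaction and animal terms used the 16 clones of animals 22 and 23, and correlations 100000 permutations. A and N clones are paired by animal, and their deviations from the group mean had correlations of 0.253 (animal 17), 0.193 (20), 0.241 (22) and 0.440 (23). The tests were checked on simulated counts.

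Alternatives were no block, DESeq2 size factors, other filters, limma-voom (limma 3.58.1), DESeq2 1.42.0 (block or none), sums per animal, fewer animals and each clone left out. The fit without N clones 22-5 and 22-9 was chosen after seeing the data.

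The members and lists were chosen with earlier results of these data known. All members are named, and from each list of related genes the genes called and up to 3 others of highest mean level. SLC9A3R2, COL3A1, ANXA4, FURIN, DPP4, CD36, CEBPA and the marker genes given singly were named after their values were seen. Of 5 adipocyte markers, 2 were tested and 0 called. PLIN1, which the study reported as higher in A clones, was past the threshold on p but short of 2-fold. Its difference was 0.53 (SE 0.18, adjusted p = 0.0456, edgeR), and that of CIDEC was -0.64 (SE 0.30, adjusted p = 0.129). The level of 1 listed gene is not reported here.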

Additional observations from a re-analysis of the deposited data

Results flagged for a closer look

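In 2 of 16 groups of values examined, 1 clone stood apart from the other 9 of its group by Dixon's criterion for 10 samples. At the nominal rate of the criterion, which assumes normal and independent groups, about 0.8 such groups would be expected. The groups here share clones and include unlogged totals and the low counts of PI16, so that number is only a rough guide. FBN1 was lowest in A clone 23-108, at 609 CPM against 1082 CPM in the next A clone. The criterion was applied to log2 CPM for the members, and on that scale the gap was 0.498 of the range of the A clones. Total counts, taken without logs, were highest in N clone 22-18, at 43111345 against 23425994 in the next N clone, a gap of 0.698 of the range of the N clones. PODXL in N clones 22-5 and 22-9 did not meet this criterion, which looks for a single clone.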

How the results depend on the processing

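The 3 calls among the members (CD34, PODXL2 and ANXA3) kept their direction under every alternative that was run and that kept these genes. No member was called (0 of the members) with at least 10 counts in every clone, which leaves these 3 genes out, with counts summed per animal and condition, in animal 22 alone, or without animal 23. The number of genes called, 743 of 12900, was 1276 with no filter, 365 with at least 10 counts in every clone, 0 when summed, 137 in animal 22 alone, 483 in animal 23 alone and 22 without animal 23. CD34 lost its call when summed (-3.30), in animal 22 (-1.78) or 23 (-2.44) alone, without animal 23 (-2.66) and without N clones 22-5 and 22-9 (-2.39). PODXL2 lost it when summed (1.80), in animal 22 alone (2.02) and without animal 23 (1.89), and ANXA3 likewise (3.28, 1.48 and 2.02). PODXL turned to higher in A clones with DESeq2 with the block (0.27) and without it (2.37), limma-voom (2.83), sums (0.67), animal 23 alone (2.68), without animal 22 (2.37) and without the 2 N clones (3.53). FBN1 turned to -0.18 when summed.

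In edgeR the block changed no call among the members. Without the replicate block, 602 genes in place of 743 and the same 3 members were called, CD34 was at -2.70, PODXL2 at 1.88, ANXA3 at 2.37, PCOLCE2 at 0.55, FBN1 at 0.17 and PODXL at -3.26.

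Leaving out each clone in turn gave 615 to 929 genes and 2 to 3 members. The difference was -2.81 to -2.13 for CD34, 1.73 to 1.99 for PODXL2, 3.003 to 3.55 for ANXA3, -0.67 to 0.62 for PODXL, 0.40 to 0.70 for PCOLCE2 and 0.26 to 0.60 for FBN1. The interaction gave 0 to 11 genes and 0 to 1 members, being 0 without N clone 23-74, 11 without N clone 22-5 and including ANXA3 without N clone 23-10. It ranged from -0.43 to 0.27 for PODXL2 and from -0.37 to 0.18 for PCOLCE2. The animal term gave 4 to 178 genes (178 without A clone 23-62, 4 without N clone 23-10, 23-22, 23-23 or 23-74 or A clone 23-108) and 0 members. It ranged from -0.28 to 0.55 for CD34 and from -0.14 to 0.29 for FBN1. Significant pairs of members numbered 0 to 2 (2 without N clone 22-9), and r ranged from -0.0573 to 0.282 for ANXA3 with FBN1, -0.0789 to 0.132 for ANXA3 with PCOLCE2, -0.227 to 0.00646 for CD34 with ANXA3 and -0.266 to 0.0971 for PODXL2 with ANXA3. A prior count of 0.5 gave 1 pair, PODXL2 with FBN1.

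DESeq2 called 116 genes for the interaction and 425 for the animal term, ANXA3 being the 1 member in both, and no filter gave 32 genes for the animal term. Without the 2 N clones the interaction was called in 14 genes and was -7.31 for PODXL, 0.31 for PODXL2, 0.34 for PCOLCE2 and 0.23 for FBN1, and the animal term was 0.32 for CD34, 0.61 for PODXL and -0.24 for FBN1. The cause of these changes was not tested. Low counts limit PODXL2 and PI16 most.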
